A study of Mus musculus with 24 samples.

Results

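The transcriptomes of *Nf2*-null Schwann cells after 3 FAK-targeting PROTACs were set against those after 4 FAK kinase inhibitors. The members were chosen by treatment, with earlier results of these data known. They were 9 PROTAC libraries and 12 kinase inhibitor libraries, 21 of the 24 libraries of the series. The 3 DMSO libraries were kept as the common control. A gene was called separated when the mean log2 CPM (counts scaled to a common library size after TMM adjustment, prior count 2) of all 3 PROTACs lay above, or below, the means of all 4 inhibitors. The gap of a gene is the log2 distance between the nearest PROTAC mean and inhibitor mean. Of 16070 genes tested, 4208 were separated, 2171 with the PROTACs higher and 2037 with the PROTACs lower. At a mean of at least 5 CPM the balance turned, with 1328 higher and 1782 lower.

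All libraries came from MS03, an immortalized murine Schwann cell line from an *Nf2* flox/flox mouse that had been given Cre, so every group, DMSO included, carried the *Nf2*-/- genotype. Cells were exposed for 24 h to DMSO, to defactinib, VS-4718, GSK2256098 or ifebemtinib (IN10018 in the labels) at 1 μM each, to PROTAC FAK Degrader 1 at 1 μM, or to GSK215 or BSJ-04-146 at 0.1 μM (BSJ-04-0146 in the labels). There were 3 libraries in each of the 8 groups, and poly(A) RNA was sequenced. It is a single cell line, and the labels call the replicates biological without saying that they came from separate cultures, so *P* values measure the spread between these libraries only, which may be technical. Of the 12 pairs of a PROTAC and an inhibitor, the 4 with PROTAC FAK Degrader 1 were at equal dose and the other 8 were not, the PROTAC being at 0.1 μM and the inhibitor at 1 μM. The class comparison treats the 7 compounds as fixed and holds for these compounds at these doses only.

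FAK, the product of *Ptk2*, is a cytoplasmic tyrosine kinase at integrin adhesions that also serves as a scaffold for other proteins there. A kinase inhibitor occupies its catalytic site and leaves the protein in place, whereas a PROTAC joins a ligand of the target to a ligand of an E3 ubiquitin ligase so that the target is ubiquitinated and destroyed by the proteasome. Merlin, the product of *Nf2*, restrains growth signalling from adhesion and receptor tyrosine kinases in Schwann cells, and its loss underlies schwannoma.

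Library totals ran from 14472462 to 21588406 counts for the PROTACs (median 17794597), from 21654444 to 26550878 for the kinase inhibitors (median 23056014) and from 22952048 to 27449516 for DMSO. PROTAC and inhibitor totals did not overlap, so depth moved with the comparison. After random thinning of all libraries to the lowest of these totals, 10054 genes passed the test in place of 10697, and 3919 were separated in place of 4208. The labelled cell type was visible in part: *Sox10*, the master regulator of the Schwann lineage, had 238 to 2080 counts per library, whereas the Schwann cell marker *S100b* had 1 to 18. In RNA from whole cultures, fewer cells of a kind and less RNA per cell cannot be told apart.

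In the quasi-likelihood test of edgeR, at a Benjamini-Hochberg adjusted *P* of 0.05 over all genes, 5456 genes were higher with the PROTACs than with the kinase inhibitors (34.0% of those tested) and 5241 were lower (32.6%). With library totals in place of TMM the split was 7094 higher and 3808 lower, and 3148 and 1190 for separated genes. Most of these differences were small. At a minimum of 2-fold, 480 were higher and 103 lower. The separated genes made up 13.5% of those tested in the higher direction and 12.7% in the lower. In 727 genes (4.52%) all 9 PROTAC libraries lay above all 12 inhibitor libraries, and in 936 (5.82%) all lay below. With each PROTAC tested against each inhibitor, all 12 contrasts passed in the higher direction for 694 genes (4.32%) and in the lower for 947 (5.89%), a balance that turned to 1116 and 480 with library totals. PROTAC FAK Degrader 1 alone, the comparison at equal dose, gave 5897 genes higher (36.7%) and 5714 lower (35.6%) than the inhibitors. The PROTACs at 0.1 μM gave 5005 higher (31.1%) and 4888 lower (30.4%). Set against DMSO, the PROTACs gave 4877 higher (30.3%) and 4760 lower (29.6%), and the inhibitors 1602 higher (9.97%) and 1683 lower (10.5%). These last comparisons share the DMSO libraries.

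Pair by pair, PROTAC FAK Degrader 1 stood furthest from the inhibitors. Its contrasts gave 10092 genes against ifebemtinib, 10733 against GSK2256098, 10886 against VS-4718 and 10902 against defactinib, of which 978, 1288, 1423 and 1348 were higher and 802, 1114, 1136 and 1233 lower by at least 2-fold. GSK215 gave 7830 genes against defactinib, 7880 against VS-4718, 8060 against GSK2256098 and 8741 against ifebemtinib, and BSJ-04-146 gave 8271, 7737, 8092 and 8378 in the same order. By at least 2-fold, 615 to 819 genes were higher and 69 to 304 lower with GSK215, and 675 to 813 higher and 81 to 277 lower with BSJ-04-146. Ifebemtinib was thus the inhibitor with the fewest genes apart from PROTAC FAK Degrader 1 and the one with the most apart from GSK215 and from BSJ-04-146. The comparison between counts was not tested. Within the separated genes, PROTAC FAK Degrader 1 was the PROTAC furthest from the inhibitors for 62.3% of the higher and 63.8% of the lower genes. The same share over all genes tested was not computed, so this is not shown to be particular to separated genes. The inhibitor nearest to the PROTACs was VS-4718 for 38.2% of the higher genes and 35.5% of the lower, where it was the outermost inhibitor on that side for 31.5% and 30.2% of all genes tested.

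Separation was seldom wide. The median gap was 0.15 among the higher genes and 0.11 among the lower, on the log2 scale. A gap of at least 1, a 2-fold space between the nearest means, was found in 26 genes in the higher direction, 9 of them at a mean of 5 CPM or more, and in 2 in the lower direction, neither at that level. Among separated genes, 83.5% of the higher and 90.4% of the lower were protein coding, beside 78.1% of all genes tested. At the edge of the definition, *Sec24c* was just inside with a class difference of 0.13 and *Sdhaf4* just outside with 0.36.

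**Figure D1:**
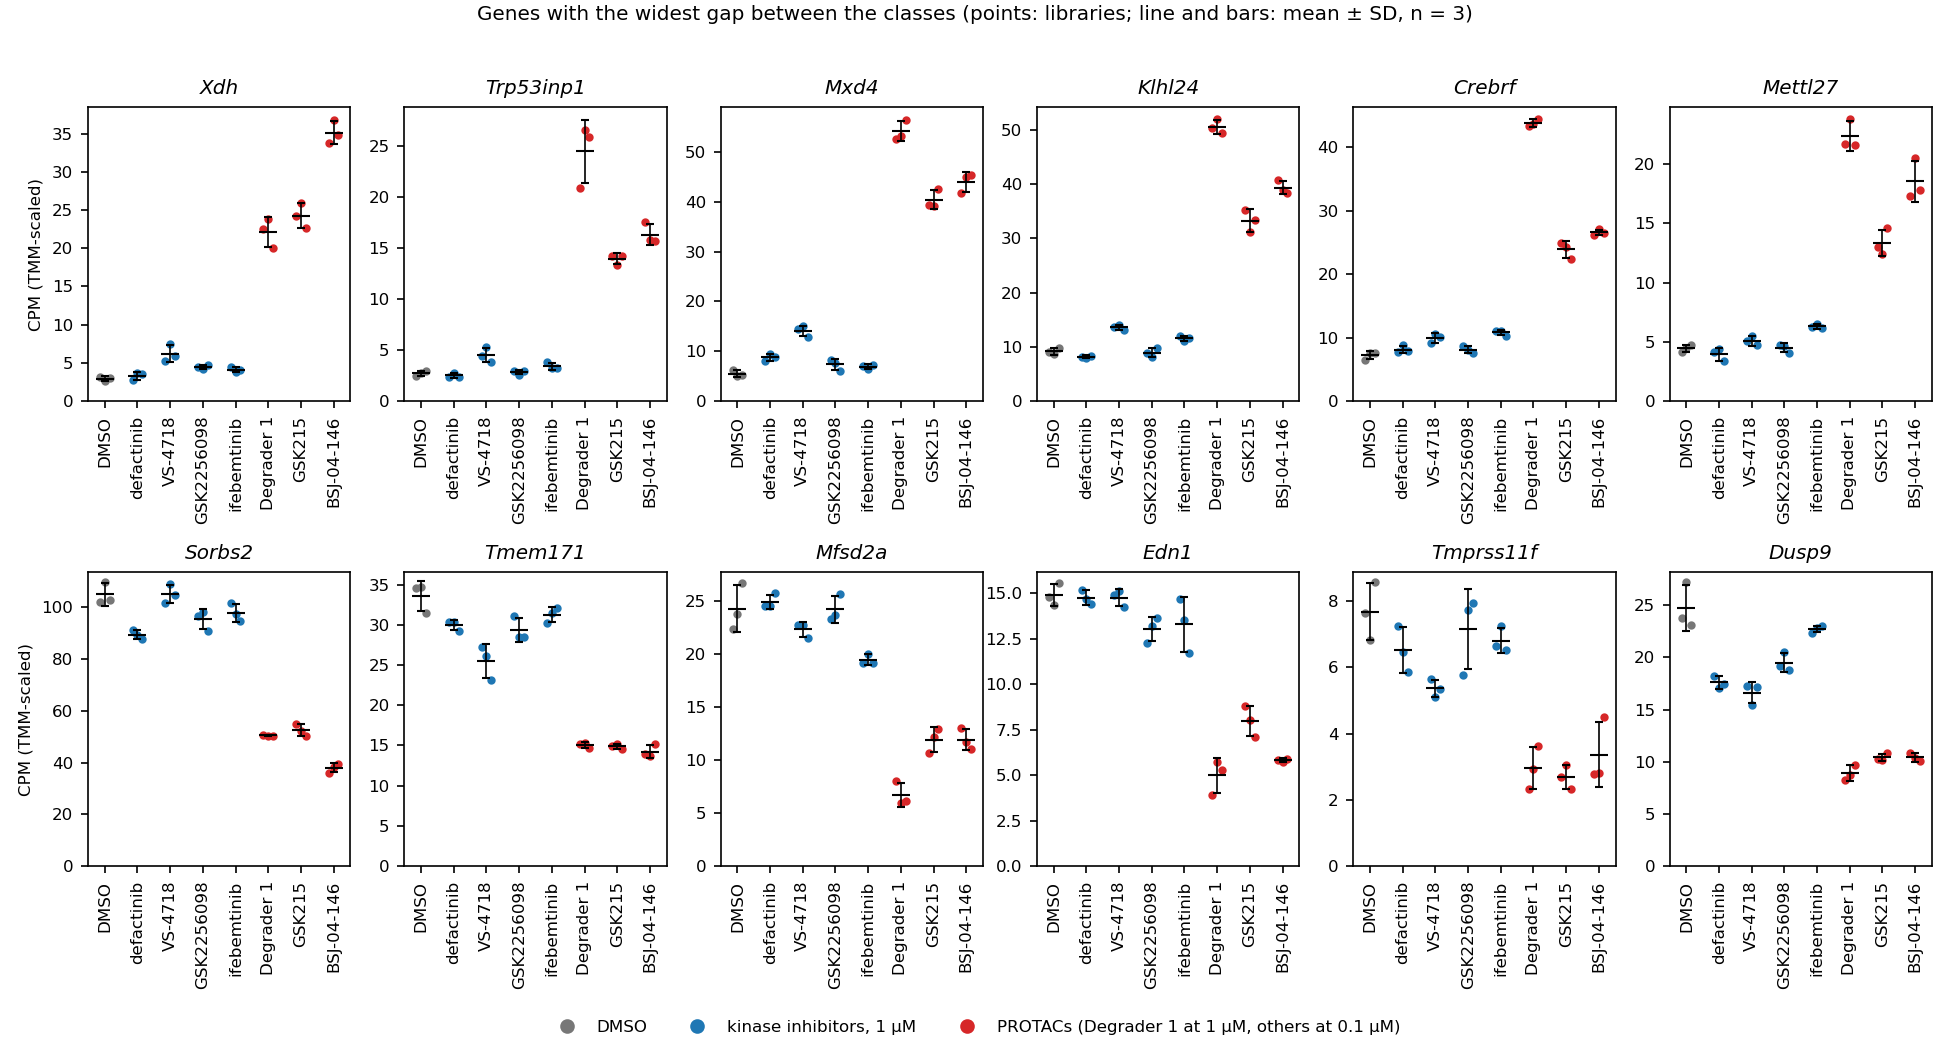
CPM (linear axes from 0) in each of the 24 libraries for the 6 separated genes of widest gap in each direction at a mean of at least 5 CPM, with 1 point per library colored by class, and lines and bars for the mean ± SD of each treatment (n = 3). For *Xdh* the 9 PROTAC libraries sit between 20.0 and 36.8 CPM and the 12 inhibitor libraries between 2.7 and 7.47, and for *Sorbs2* the PROTAC libraries sit between 36.0 and 54.8 and the inhibitor libraries between 87.7 and 109.

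Among genes with an official symbol and a mean of at least 5 CPM, those of widest gap in the higher direction were *Xdh*, *Trp53inp1* and *Mxd4*, each over 5-fold higher with the PROTACs. *Xdh* (ENSMUSG00000024066, GRCm38 chr17:73883895-73950196, minus strand) encodes xanthine dehydrogenase, the enzyme of the last steps of purine breakdown. It was at 22.5, 23.8 and 20.0 CPM with PROTAC FAK Degrader 1, at 24.2, 26.0 and 22.6 with GSK215 and at 33.7, 36.8 and 34.9 with BSJ-04-146. The inhibitor libraries ran from 2.7 to 7.47 CPM with a median of 4.31, and DMSO was at 3.21, 2.59 and 3.05. No PROTAC library came near an inhibitor library, GSK215 overlapped PROTAC FAK Degrader 1, and BSJ-04-146 was above both. The class difference was 2.59 (SE 0.05, edgeR adjusted *P* = 1.26e-32), a 6.04-fold change, with a gap of 1.83, or 3.55-fold. Against DMSO, the PROTAC mean was higher by 3.18 and the inhibitor mean by 0.58.

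*Trp53inp1* (ENSMUSG00000028211, chr4:11156431-11174379, plus strand) encodes a nuclear protein of the p53 stress response that also takes part in autophagy. It was at 20.9, 26.6 and 25.9 CPM with PROTAC FAK Degrader 1, 14.2, 13.3 and 14.3 with GSK215 and 17.6, 15.8 and 15.7 with BSJ-04-146, against 2.4 to 5.28 (median 3.1) with the inhibitors. The groups did not overlap, and the class difference was 2.45 (SE 0.06, edgeR adjusted *P* = 1.9e-30). *Mxd4* (ENSMUSG00000037235, chr5:34173883-34187720, minus strand) encodes a partner of MAX that opposes MYC at E-boxes. It was at 52.7, 53.3 and 56.5 CPM with PROTAC FAK Degrader 1, 39.3, 39.3 and 42.6 with GSK215, and 41.8, 44.9 and 45.4 with BSJ-04-146. VS-4718, at 14.4, 15.0 and 12.9 CPM, was the inhibitor nearest to them, and the other inhibitors ran from 6.01 to 9.42. The class difference was 2.36 (SE 0.04, edgeR adjusted *P* = 6.02e-35).

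The remaining 9 of the 12 named genes in this direction are given by function, a grouping made after they were picked and not tested. Of regulators of protein turnover, *Klhl24*, a substrate adaptor of cullin 3 ligases, was at 31.1 to 52.0 CPM with the PROTACs and 7.92 to 14.1 with the inhibitors, a difference of 1.97 (SE 0.03). *Mylip*, an E3 ubiquitin ligase, was at 21.5 to 24.5 against 8.31 to 11.1 CPM, a difference of 1.29 (SE 0.04). *Mylip* hardly varied among the PROTACs, with 1.33 for PROTAC FAK Degrader 1 and 1.27 for the PROTACs at 0.1 μM. *Capn5*, a calcium-dependent protease, was at 24.2 to 33.3 against 9.85 to 13.5 CPM. Of regulators of transcription and chromatin, *Crebrf*, a negative regulator of the CREB3 family, was at 22.5 to 44.4 against 7.55 to 11.1 CPM, a difference of 1.73 (SE 0.04). *Kdm7a*, a histone demethylase, was at 25.9 to 54.0 against 11.0 to 14.9 CPM, a difference of 1.43 (SE 0.04).

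Of enzymes and metabolic regulators, *Aox1*, an aldehyde oxidase of the same enzyme family as *Xdh*, was at 7.72 to 12.5 CPM with the PROTACs and 1.91 to 4.98 with the inhibitors, a difference of 1.58 (SE 0.07). *Txnip*, which binds thioredoxin and limits glucose uptake, was at 146, 153 and 143 CPM with PROTAC FAK Degrader 1, 72.5, 71.5 and 73.8 with GSK215 and 73.8, 76.9 and 74.2 with BSJ-04-146, against 23.9 to 40.9 with the inhibitors. All PROTAC libraries were above all inhibitor libraries, and the equal-dose PROTAC was highest. Its class difference was 1.51 (SE 0.02, edgeR adjusted *P* = 1.85e-35), made up of 2.17 for PROTAC FAK Degrader 1 and 1.18 for the PROTACs at 0.1 μM. *Uap1l1*, related to the enzyme that makes UDP-N-acetylglucosamine, had another order, with BSJ-04-146 at 172, 184 and 167 CPM, GSK215 at 97.2, 102 and 105 and PROTAC FAK Degrader 1 at 95.9, 84.8 and 83.1, against 32.3 to 48.4 with the inhibitors. *Mettl27*, a putative methyltransferase, was at 12.4 to 23.8 against 3.35 to 6.53 CPM. For all 12 named genes of this direction the libraries of both classes did not overlap and all 12 pairs passed the test. Both go with the choice of these genes by gap in the same libraries and are not separate support.

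Lower with the PROTACs, the widest gaps at a mean of at least 5 CPM were those of *Sorbs2*, *Tmem171* and *Mfsd2a*. *Sorbs2* (ENSMUSG00000031626, chr8:45507788-45827906, plus strand) encodes an adaptor that links actin to adhesion and signalling proteins. It was at 50.5, 50.4 and 50.4 CPM with PROTAC FAK Degrader 1, 54.8, 52.4 and 50.1 with GSK215 and 36.0, 38.4 and 39.4 with BSJ-04-146, against 87.7 to 109 (median 97) with the inhibitors and 102, 110 and 103 with DMSO. Every PROTAC library was far below every inhibitor library, while the inhibitor libraries lay near DMSO. The class difference was -1.06 (SE 0.02, edgeR adjusted *P* = 3.32e-31), with a gap of 0.77. *Tmem171* (ENSMUSG00000052485, chr13:98686235-98694834, minus strand), a transmembrane protein gene, was at 13.7 to 15.3 CPM in all 9 PROTAC libraries and 23.1 to 32.0 in the inhibitor libraries. The libraries of the 3 PROTACs overlapped one another. *Mfsd2a* (ENSMUSG00000028655, chr4:122946850-122961188, minus strand), a transporter of lysophosphatidylcholine, was lowest with PROTAC FAK Degrader 1 at 7.99, 5.95 and 6.14 CPM, was at 10.6 to 13.0 with the PROTACs at 0.1 μM, and ran from 19.1 to 25.7 with the inhibitors, a difference of -1.20 (SE 0.05).

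Among the other 9 named genes in this direction, 3 encode secreted or surface proteins. *Edn1*, the precursor of endothelin-1, was at 3.9 to 8.8 CPM with the PROTACs and 11.7 to 15.2 with the inhibitors, a difference of -1.19 (SE 0.06). *Bmper*, a secreted BMP-binding protein, was at 7.19 to 9.19 against 12.9 to 20.4 CPM, and *Tmprss11f*, a membrane serine protease, at 2.32 to 4.49 against 5.11 to 7.95. *Dusp9*, a phosphatase of MAP kinases, was at 8.27 to 10.8 against 15.5 to 23.0 CPM, a difference of -0.94 (SE 0.04). *Mybl2*, a transcription factor of cell-cycle genes, was at 95 to 133 against 181 to 229 CPM, a difference of -0.85 (SE 0.02). *Epop*, which associates with Polycomb repressive complex 2, was at 8.04 to 13.1 against 17.2 to 23.1 CPM. The cytosolic pyrophosphatase *Ppa1* was at 103 to 136 against 182 to 214 CPM, *Fam57a* at 21.2 to 24.6 against 32.6 to 41.7, and *Lrrc59*, a ribosome-associated protein of the endoplasmic reticulum, at 400 to 428 against 601 to 640. All 12 named genes of this direction passed in all 12 pairs with no overlap between libraries of the classes, which again goes with their choice by gap.

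The promoters of genes that moved together were searched for short motifs, since the E-box CACGTG is the letter core shared by sites of MYC, MAX and MXD proteins and by the CLEAR element of lysosomal genes. RefSeq windows (GRCm38.p6, 250 bases before to 50 after the start) were matched by symbol for 10507 of the 16060 symbols tested, and both strands were read. CACGTG was present in 10.2% of all windows, in 17 of the 76 windows of the 90 higher genes with a gap of at least 0.5 at 5 CPM or more (22.4%), and in 2 of the 12 windows of the 19 such lower genes (16.7%). It was present in 11 of 34 windows of lysosome and V-ATPase genes (32.4%) and in 4 of 23 of ribosome biogenesis genes (17.4%). It was present in 3 of 16 windows of cholesterol genes (18.8%), 3 of 24 of DNA replication genes (12.5%) and 1 of 25 of proteasome genes (4.00%). Further motifs were TGATGNAAT (ATF4 composite), TGANTCA (AP-1), GGAATG (TEAD), TGACNNNGC (antioxidant response), the CArG box and TATAAA. Their shares of all windows were 0.447%, 5.06%, 12.1%, 14.7%, 1.33% and 6.94%, and their shares among the higher genes were 0.00%, 7.89%, 9.21%, 15.8%, 0.00% and 1.32%. Among the 12 windows of the lower genes they were 0.00%, 8.33%, 16.7%, 33.3%, 0.00% and 0.00%. In the lists, TGACNNNGC was in 25.0% of DNA replication windows and TGANTCA in 14.7% of lysosome windows. TGANTCA and TGACNNNGC can overlap. A match is a run of letters, not a measured site, and these shares were not tested.

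The windows shown are those of *Mxd4*, *Sorbs2* and *Mfsd2a*, which had one among the 3 named genes of widest gap in each direction, and, chosen after their values were seen, those of separated genes with the E-box: *Crebrf*, the lysosomal genes *Mcoln1*, *Fnip1* and *Atp6v0d1*, and *Nop2* of ribosome biogenesis. Capitals mark CACGTG. The first E-box began 219 bases before the start in *Mxd4*, 125 before in *Crebrf*, 71 before in *Mcoln1*, 75 before in *Fnip1*, 3 before in *Atp6v0d1* and 60 before in *Nop2*. *Sorbs2* and *Mfsd2a* had none in this window. Each is given 5′ to 3′ on the strand of its gene.
Mxd4, chr5:34187661-34187960, minus strand: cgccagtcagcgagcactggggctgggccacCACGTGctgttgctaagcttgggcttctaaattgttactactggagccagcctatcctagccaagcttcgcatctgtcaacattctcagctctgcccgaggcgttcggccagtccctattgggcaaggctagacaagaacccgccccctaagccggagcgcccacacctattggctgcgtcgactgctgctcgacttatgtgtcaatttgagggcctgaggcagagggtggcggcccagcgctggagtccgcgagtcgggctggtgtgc
Crebrf, chr17:26715400-26715699, plus strand: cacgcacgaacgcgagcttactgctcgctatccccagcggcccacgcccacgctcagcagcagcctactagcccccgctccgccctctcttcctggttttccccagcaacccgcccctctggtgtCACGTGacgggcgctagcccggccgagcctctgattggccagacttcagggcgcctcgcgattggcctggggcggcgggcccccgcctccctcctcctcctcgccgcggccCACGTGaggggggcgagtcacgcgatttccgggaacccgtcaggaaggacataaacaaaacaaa
Mcoln1, chr8:3500269-3500568, plus strand: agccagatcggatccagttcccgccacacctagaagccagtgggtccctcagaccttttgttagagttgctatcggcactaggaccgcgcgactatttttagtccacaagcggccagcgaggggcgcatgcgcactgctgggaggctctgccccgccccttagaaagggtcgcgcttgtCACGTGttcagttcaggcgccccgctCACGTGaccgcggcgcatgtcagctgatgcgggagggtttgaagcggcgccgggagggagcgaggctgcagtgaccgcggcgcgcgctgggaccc
Fnip1, chr11:54437929-54438228, plus strand: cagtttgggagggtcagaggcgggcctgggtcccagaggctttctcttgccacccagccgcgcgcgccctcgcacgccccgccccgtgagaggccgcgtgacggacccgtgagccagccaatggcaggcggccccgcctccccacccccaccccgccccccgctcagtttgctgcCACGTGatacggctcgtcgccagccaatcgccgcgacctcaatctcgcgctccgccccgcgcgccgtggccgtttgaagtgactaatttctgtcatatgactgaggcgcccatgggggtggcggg
Atp6v0d1, chr8:105566015-105566314, minus strand: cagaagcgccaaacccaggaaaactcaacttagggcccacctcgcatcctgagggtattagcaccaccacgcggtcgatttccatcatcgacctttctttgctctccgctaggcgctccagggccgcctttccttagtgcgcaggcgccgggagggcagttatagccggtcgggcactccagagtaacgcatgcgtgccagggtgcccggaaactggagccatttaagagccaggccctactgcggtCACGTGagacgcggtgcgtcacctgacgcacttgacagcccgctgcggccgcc
Nop2, chr6:125131633-125131932, plus strand: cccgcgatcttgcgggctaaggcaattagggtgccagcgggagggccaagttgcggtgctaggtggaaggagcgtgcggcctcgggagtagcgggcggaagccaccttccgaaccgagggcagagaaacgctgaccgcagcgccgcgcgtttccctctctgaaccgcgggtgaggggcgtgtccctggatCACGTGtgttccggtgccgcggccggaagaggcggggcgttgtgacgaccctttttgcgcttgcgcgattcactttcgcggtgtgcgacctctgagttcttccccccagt
Sorbs2, chr8:45507538-45507837, plus strand: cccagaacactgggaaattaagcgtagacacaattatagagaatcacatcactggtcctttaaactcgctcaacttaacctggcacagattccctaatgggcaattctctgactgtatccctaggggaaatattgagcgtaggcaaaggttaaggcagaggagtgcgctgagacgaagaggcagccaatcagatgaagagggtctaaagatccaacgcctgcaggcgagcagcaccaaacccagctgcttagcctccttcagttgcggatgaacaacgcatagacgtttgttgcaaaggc
Mfsd2a, chr4:122961139-122961438, minus strand: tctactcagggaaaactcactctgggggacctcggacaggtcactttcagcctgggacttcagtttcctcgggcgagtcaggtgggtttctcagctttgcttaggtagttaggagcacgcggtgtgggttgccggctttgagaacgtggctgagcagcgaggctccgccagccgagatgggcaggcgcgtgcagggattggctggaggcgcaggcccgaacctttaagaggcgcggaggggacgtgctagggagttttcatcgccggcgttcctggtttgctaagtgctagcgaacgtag

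Genes of the lysosome and of the vacuolar ATPase, the proton pump that acidifies it, were mostly higher with the PROTACs. Of 43 tested, 37 rose and 2 fell relative to the inhibitors, with a median difference of 0.32, beside 34.0% and 32.6% of all genes tested and a median of 0.01. Of these, 16 were separated in the higher direction and none in the lower, and 12 passed in all 12 pairs, beside 13.5%, 12.7% and 4.32% of all genes tested. The separated members included *Gpnmb*, a lysosome-stress glycoprotein, and *Rragd*, *Flcn* and *Fnip1*, which encode the Rag GTPase D and its partners in nutrient sensing by mTORC1. *Mitf* (0.81, SE 0.05), a transcription factor of lysosomal genes, *Mcoln1* (0.74, SE 0.03), the lysosomal calcium channel, *Neu1* (0.82, SE 0.03), a sialidase, and the pump subunit *Atp6v0d1* (0.93, SE 0.02) also lay above all inhibitors. The related factors *Tfe3* and *Tfeb* differed by 0.14 (edgeR adjusted *P* = 1.13e-05) and 0.07 (edgeR adjusted *P* = 0.329).

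Within the lysosome list the PROTACs differed from one another. *Gpnmb* was at 1.61, 1.36 and 2.31 CPM with PROTAC FAK Degrader 1, 6.57, 6.46 and 5.97 with GSK215 and 14.9, 13.1 and 11.9 with BSJ-04-146, against 0.815 to 1.37 with the inhibitors. The PROTACs at 0.1 μM were far above every inhibitor library, while the lowest PROTAC FAK Degrader 1 library was within their range. The difference was 3.05 for the PROTACs at 0.1 μM and 0.67 for PROTAC FAK Degrader 1. *Sqstm1*, the autophagy receptor p62, went the other way, at 1252, 1185 and 1137 CPM with PROTAC FAK Degrader 1, 409, 411 and 428 with GSK215 and 613, 635 and 602 with BSJ-04-146. The mean of ifebemtinib, at 421, 416 and 440 CPM, was above that of GSK215, so *Sqstm1* was not separated. Over the whole list, 40 rose and none fell with the PROTACs at 0.1 μM (median 0.45), while 24 rose and 15 fell with PROTAC FAK Degrader 1 (median 0.21). Over all genes tested the shares called were 31.1% higher and 30.4% lower at 0.1 μM and 36.7% higher and 35.6% lower with PROTAC FAK Degrader 1, so the members that fell with the latter were near the share of all genes. They included *Lamp1* (-0.88), *Cd63* (-0.77) and *Ctsd* (-0.58), structural proteins and a protease of the lysosome, none of them separated.

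Markers of macrophages, which are rich in lysosomes, were read beside this list. Their summed level over 6 genes was 6.19 to 12.0 CPM in the PROTAC libraries and 3.79 to 6.21 in the inhibitor libraries. Nearly all of it was *Cd68*, itself a lysosomal protein (4.92 to 11.4 against 3.17 to 5.3 CPM, difference 1.04, SE 0.07), whereas *Ptprc*, *Adgre1* and *Itgam* had at most 1 count in any library, *Csf1r* 3 to 20 and *Aif1* 2 to 10. The part of macrophage RNA in the lysosome result was not tested. *Krt18*, with 0.54 (SE 0.07), was the other marker of another cell type that passed, and *Epcam* and *Cdh1* had at most 1 and 3 counts. Endothelial markers summed to at most 0.57 CPM and fibroblast, neuron and lymphocyte markers to at most 0.218 in any treated library.

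Genes of ribosome biogenesis, which transcribe, process and assemble ribosomal RNA in the nucleolus, were all lower with the PROTACs. All 28 tested fell, with a median of -0.47, 26 were separated and 25 passed in all 12 pairs, beside 32.6%, 12.7% and 5.89% of all genes tested. *Nolc1*, a nucleolar chaperone, was at 148, 148 and 142 CPM with PROTAC FAK Degrader 1, 233, 222 and 231 with GSK215 and 219, 221 and 217 with BSJ-04-146, against 322 to 352 with the inhibitors and 384, 378 and 387 with DMSO. The libraries did not overlap, and the difference was -0.81 (SE 0.02, edgeR adjusted *P* = 3.52e-33). *Rrp12*, which exports pre-ribosomes, was at 46.5 to 65.8 against 92.0 to 112 CPM, a difference of -0.82 (SE 0.02). *Nop2*, an rRNA methyltransferase, was at 125 to 240 against 285 to 323 CPM, a difference of -0.72 (SE 0.02). The RNA polymerase I subunits *Polr1a* and *Polr1b* fell by 0.47 and 0.66. The exceptions to separation were *Npm1* and *Nop14*, which rose with PROTAC FAK Degrader 1 (0.17 and 0.35) and fell with the PROTACs at 0.1 μM (-0.51 and -0.53). The list median was -0.57 for PROTAC FAK Degrader 1 and -0.45 for the PROTACs at 0.1 μM. Against the shared DMSO libraries it was -0.60 for the PROTACs and -0.12 for the inhibitors.

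**Figure D2:**
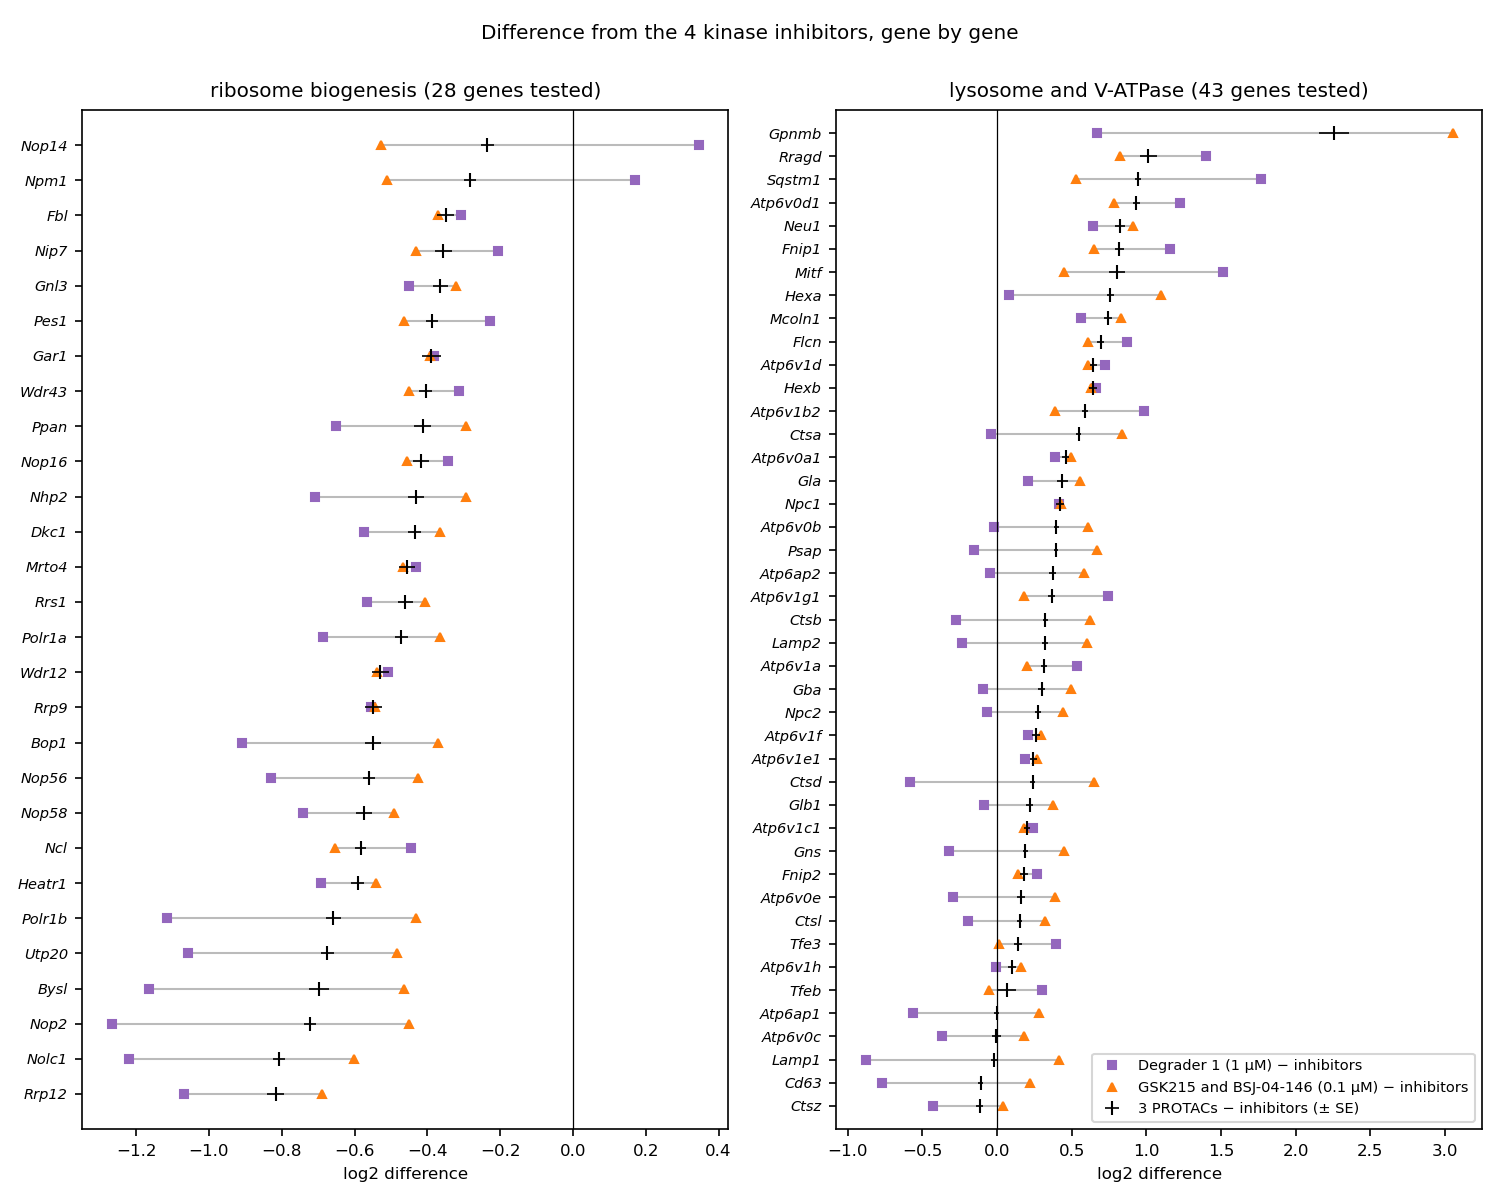
Log2 difference from the 4 inhibitors (horizontal axis) of each member of the ribosome biogenesis list (left) and the lysosome and V-ATPase list (right), as squares for PROTAC FAK Degrader 1, triangles for the PROTACs at 0.1 μM and crosses with SE bars for the 3 PROTACs, all set against the same inhibitor libraries. For all of the 28 ribosome genes but *Npm1* and *Nop14* both symbols lie below 0, and in the lysosome list the squares spread to both sides of 0.

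The proteasome, which carries out the degradation that a PROTAC calls for, was lower as a group. Of 31 subunit genes, 30 fell and 1 rose, with a median of -0.23, 19 were separated in the lower direction and 7 passed in all 12 pairs, beside 32.6%, 12.7% and 5.89% of all genes tested in that direction. The changes were small but tight. *Psmd12* was at 124 to 161 CPM with the PROTACs and 185 to 207 with the inhibitors (-0.42, SE 0.02), *Psmd1* at 229 to 310 against 347 to 375 (-0.40) and *Psmd3* at 256 to 291 against 320 to 373 (-0.38), all of them subunits of the regulatory particle. The subunit that rose was *Psmb1*, by 0.08. Of 14 genes of the ubiquitin ligases that PROTACs recruit, 3 rose and 7 fell, beside 34.0% and 32.6% of all genes tested. *Cand1*, which exchanges the substrate receptors of cullin ligases, was at 162 to 232 against 238 to 283 CPM (-0.34, SE 0.02). *Eloc*, elongin C of the VHL ligase, differed by -0.25 and was separated by 0.000903. *Crbn*, the cereblon receptor, was at 47.8, 46.4 and 45.3 CPM with PROTAC FAK Degrader 1 and 27.4 to 35.4 with the PROTACs at 0.1 μM, the latter overlapping the 24.7 to 34.6 of the inhibitors.

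Cell-cycle genes were lower with the PROTACs. The list median was -0.63 for PROTAC FAK Degrader 1 and -0.20 for the PROTACs at 0.1 μM in DNA replication, and -0.29 and -0.18 in mitosis. The difference between these medians was not tested. Of 31 DNA replication genes, 27 fell and 2 rose (median -0.37), 20 were separated and 15 passed in all 12 pairs, again beside 32.6%, 12.7% and 5.89% of all genes tested. *Rrm2*, the small subunit of ribonucleotide reductase, was at 63.0, 62.8 and 64.0 CPM with PROTAC FAK Degrader 1, 160, 157 and 155 with GSK215 and 166, 165 and 162 with BSJ-04-146, against 188 to 234 with the inhibitors. The equal-dose PROTAC was far below, and the others were just below, the nearest inhibitor, VS-4718 at 188 to 191. The difference was -1.79 for PROTAC FAK Degrader 1 and -0.44 for the PROTACs at 0.1 μM. *Cdc6*, which loads the replicative helicase, was at 28.4 to 32.0 CPM with PROTAC FAK Degrader 1, 73.5 to 80.2 with the PROTACs at 0.1 μM and 94.1 to 107 with the inhibitors. *Mcm4*, a subunit of that helicase, differed by -1.45 and -0.30 in the same order. Of 25 mitosis genes, 22 fell and 3 rose (median -0.21), 14 were separated in the lower direction and 8 passed in all 12 pairs. With PROTAC FAK Degrader 1, 21 of them fell, and with the PROTACs at 0.1 μM 22, beside 35.6% and 30.4% of all genes tested. Some members differed less with PROTAC FAK Degrader 1, such as *Aurkb* (-0.14 against -0.24 at 0.1 μM) and *Tpx2* (-0.09 against -0.18). *Ccna2*, cyclin A2, was at 157 to 242 against 269 to 305 CPM (-0.47, SE 0.02), and *Mki67*, the proliferation antigen, differed by -0.46 but was not separated, since the mean of GSK215 (558 to 609 CPM) was above that of ifebemtinib (556 to 584).

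Of 23 genes of cholesterol synthesis and uptake, 20 fell and 1 rose with a median of -0.49, 5 were separated and 3 passed in all 12 pairs in the lower direction, beside 32.6%, 12.7% and 5.89% of all genes tested. The synthesis enzyme *Dhcr7* was separated, at 27.5, 25.9 and 27.8 CPM with PROTAC FAK Degrader 1, 70.3, 73.5 and 75.4 with GSK215 and 69.2, 75.6 and 71.4 with BSJ-04-146, against 84.0 to 103 with the inhibitors. The libraries of both classes did not overlap, and the difference was -0.83 (SE 0.02), made up of -1.77 for PROTAC FAK Degrader 1 and -0.35 for the PROTACs at 0.1 μM.

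**Figure D3:**
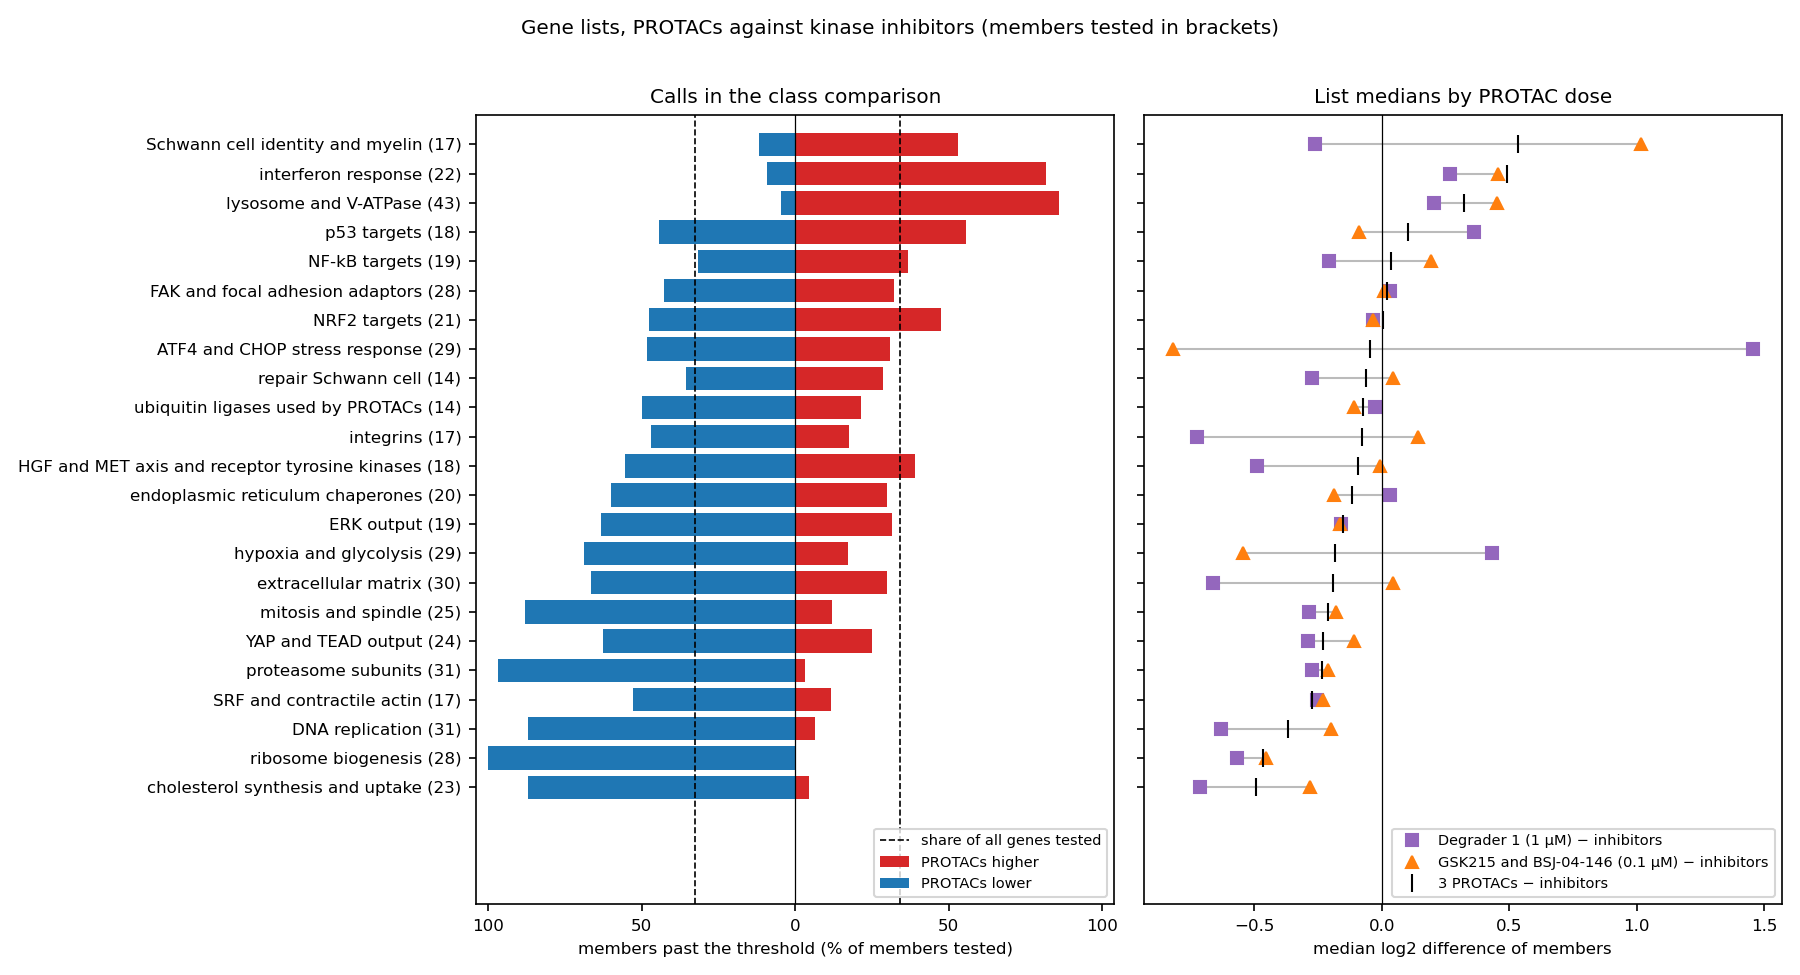
Percentage of members of each gene list called higher or lower in the class comparison, beside the 34.0% and 32.6% of all genes tested (left, dashed), and median log2 difference of the members from the 4 inhibitors for PROTAC FAK Degrader 1, for the PROTACs at 0.1 μM and for all 3 PROTACs (right). The list of markers of other cell types is left out, ribosome biogenesis lies at -0.47 with 28 of 28 members lower, the lysosome list at 0.32 with 37 of 43 higher, and the ATF4 and CHOP list has medians of opposite sign for PROTAC FAK Degrader 1 (1.46) and the PROTACs at 0.1 μM (-0.82).

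The target itself did not separate the classes at the RNA level. *Ptk2* was at 95.7, 102 and 95.6 CPM with PROTAC FAK Degrader 1, 77.6, 78.6 and 77.4 with GSK215 and 81.0, 80.1 and 78.1 with BSJ-04-146, against 83.5 to 92.9 with the inhibitors and 92.9, 95.4 and 97.7 with DMSO. PROTAC FAK Degrader 1 lay above the inhibitors, by 0.16 (95% interval 0.11 to 0.22), and the PROTACs at 0.1 μM below, by -0.15 (-0.19 to -0.10). The class difference of -0.04 (SE 0.02, edgeR adjusted *P* = 0.0571) did not pass the test, and it was 0.04 with library totals in place of TMM. These counts measure transcript and not protein.

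Of 28 genes of FAK and focal adhesion adaptors, 9 rose and 12 fell (median 0.02), which is 32.1% and 42.9% of the list beside 34.0% and 32.6% of all genes tested. *Fyn*, a Src-family kinase, was separated, at 88.9 to 91.9 CPM with PROTAC FAK Degrader 1, 52.9 to 57.1 with the PROTACs at 0.1 μM and 43.5 to 50.2 with the inhibitors (0.47, SE 0.02). *Tns1*, tensin 1 of fibrillar adhesions, was at 232 to 351 CPM with the PROTACs at 0.1 μM but at 61.9, 62.2 and 69.2 with PROTAC FAK Degrader 1, inside the 48.0 to 91.4 of the inhibitors. Of 18 genes of the HGF and MET axis and receptor tyrosine kinases, 7 rose and 10 fell, 38.9% and 55.6% of the list. *Met* differed by -0.62 (SE 0.02), with -1.21 for PROTAC FAK Degrader 1 and -0.32 for the PROTACs at 0.1 μM, passed in all 12 pairs and was separated by 0.09, with its highest PROTAC library (198 CPM) above the lowest inhibitor library (194). *Plaur*, the urokinase receptor, was separated in every library, at 12.4 to 13.2 CPM with PROTAC FAK Degrader 1, 22.4 to 26.1 with the PROTACs at 0.1 μM and 32.7 to 43.1 with the inhibitors (-0.98, SE 0.03). *Erbb3*, the neuregulin receptor of Schwann cells, was at 17.8 to 21.7 CPM with the PROTACs at 0.1 μM and 4.96 to 5.57 with PROTAC FAK Degrader 1, against 3.27 to 10.9.

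Among genes of signalling pathways downstream, the list of YAP and TEAD output had 15 of 24 genes lower and 6 higher (median -0.23), beside 32.6% and 34.0% of all genes tested. It holds targets and also the factors themselves, among them *Yap1*, *Wwtr1* and *Tead1* to *Tead4*, so its counts do not measure output alone. Of its members 7, *Yap1* and *Tead4* among them, were separated in the lower direction and 2, *Tead2* and *Tead3*, in the higher, beside 12.7% and 13.5% of all genes tested. *Ankrd1* was at 72.2 to 84.0 CPM in all 9 PROTAC libraries against 109 to 181 with the inhibitors and 174 to 182 with DMSO (-0.91, SE 0.02, edgeR adjusted *P* = 1.21e-30). *Ctgf*, the same kind of target, was at 2.09 to 2.63 CPM with PROTAC FAK Degrader 1 and 7.21 to 13.0 with the PROTACs at 0.1 μM, the latter overlapping the 8.19 to 13.8 of the inhibitors. ERK output had 12 of 19 lower and 6 higher (median -0.15), the latter near the share of all genes. Its separated members were *Dusp5* (-0.79), *Fosl1* (-0.69), *Ccnd1* (-0.57) and *Phlda1* (-0.38) in the lower direction and *Spred3* (0.25) in the higher. Of 17 genes of SRF and contractile actin, 9 fell and 2 rose (median -0.27), which is 52.9% and 11.8% of the list. *Actb*, beta-actin, was at 1179 to 1216 CPM with PROTAC FAK Degrader 1, 2220 to 2304 with the PROTACs at 0.1 μM and 2535 to 3060 with the inhibitors (-0.60, SE 0.02). *Tpm2*, a tropomyosin, was the separated member that rose, at 32.4 to 45.3 against 16.6 to 23.0 CPM (0.96, SE 0.03).

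Interferon response genes were higher as a group, at low levels. Of 22 tested, 18 rose and 2 fell (median 0.49), 9 were separated and 2 passed in all 12 pairs in the higher direction, beside 34.0%, 13.5% and 4.32% of all genes tested. *Stat2* (0.37, SE 0.04), a transcription factor of the pathway, was among the members that passed in all 12 pairs. *Irf7* reached 0.657 to 1.15 CPM with the PROTACs and 0.0902 to 0.6 with the inhibitors (1.24, SE 0.23). *Mx2* reached at most 0.683 CPM in any treated library. Of 21 NRF2 targets, 10 rose and 10 fell, and those separated were *Gstm1* (0.80), *Gsta4* (0.78), *Ftl1* (0.65) and *Fth1* (0.49), which encode glutathione transferases and ferritin chains, in the higher direction and *Gsr* (-0.40) and *Ugdh* (-0.21) in the lower. Of 18 p53 targets, 10 rose and 8 fell, beside 34.0% and 32.6% of all genes tested. The 19 NF-κB targets had 7 higher and 6 lower, close to those shares, but these counts combine PROTACs that lay apart. With PROTAC FAK Degrader 1, 2 were higher and 11 lower (median -0.21), beside 36.7% and 35.6% of all genes tested. With the PROTACs at 0.1 μM, 9 were higher and 5 lower (median 0.19), beside 31.1% and 30.4%. Endoplasmic reticulum chaperones had 6 of 20 higher and 12 lower, with a median of -0.12.

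In several lists the PROTACs lay on opposite sides of the inhibitors, so that few or no members were separated. These comparisons share the inhibitor libraries, and dose and compound cannot be told apart in them. None of the 29 genes of the ATF4 and CHOP stress response was separated. In the class comparison 9 of them rose and 14 fell (median -0.05), beside 34.0% and 32.6% of all genes tested. With PROTAC FAK Degrader 1, 27 rose and 1 fell (median 1.46), and with the PROTACs at 0.1 μM 1 rose and 26 fell (median -0.82). Of all genes tested, 36.7% were higher and 35.6% lower with PROTAC FAK Degrader 1 and 31.1% were higher and 30.4% lower at 0.1 μM, which is the background for the counts of the next lists too. *Ddit3*, which encodes CHOP, was at 241, 237 and 234 CPM with PROTAC FAK Degrader 1, 11.5, 9.88 and 10.9 with GSK215 and 12.0, 10.7 and 13.8 with BSJ-04-146, against 7.56 to 29.9 with the inhibitors and 21.0, 18.8 and 19.2 with DMSO. The class difference of 1.11 combines 4.03 for PROTAC FAK Degrader 1 with -0.35 for the PROTACs at 0.1 μM. *Nupr1* and *Ppp1r15a*, further stress genes, were at 130 to 136 and 161 to 180 CPM with PROTAC FAK Degrader 1 and at 7.26 to 9.22 and 13.9 to 19.8 with the others.

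Hypoxia and glycolysis genes showed the same contrast at a smaller size. Of 29, 5 rose and 20 fell in the class comparison, beside 34.0% and 32.6% of all genes tested. With the compounds apart, 23 rose and 4 fell with PROTAC FAK Degrader 1 (median 0.43), and 2 rose and 27 fell with the PROTACs at 0.1 μM (median -0.54). *Eno1*, enolase 1, was the sole separated member (-0.45, SE 0.02). *Slc2a1*, the glucose transporter GLUT1, was at 275 to 289 CPM with PROTAC FAK Degrader 1, 126 to 131 with GSK215, 118 in each BSJ-04-146 library and 151 to 349 with the inhibitors. Schwann cell identity and myelin genes had the reverse order. Of 17 tested, 9 rose and 2 fell in the class comparison (median 0.54), beside 34.0% and 32.6% of all genes tested. In the higher direction 2 were separated and in the lower 1, beside 13.5% and 12.7%. By compound, 4 rose and 10 fell with PROTAC FAK Degrader 1 (median -0.26), and 13 rose and 2 fell with the PROTACs at 0.1 μM (median 1.02). *Ngfr*, the neurotrophin receptor p75, was at 4.22 to 5.83 CPM with PROTAC FAK Degrader 1, 63.4 to 66.2 with GSK215, 48.3 to 52.4 with BSJ-04-146 and 8.66 to 37.5 with the inhibitors. *Mbp*, myelin basic protein, was separated by 0.03, with PROTAC FAK Degrader 1 at 29.7 to 30.4 CPM beside VS-4718 at 29.1 to 30.1.

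**Figure D4:**
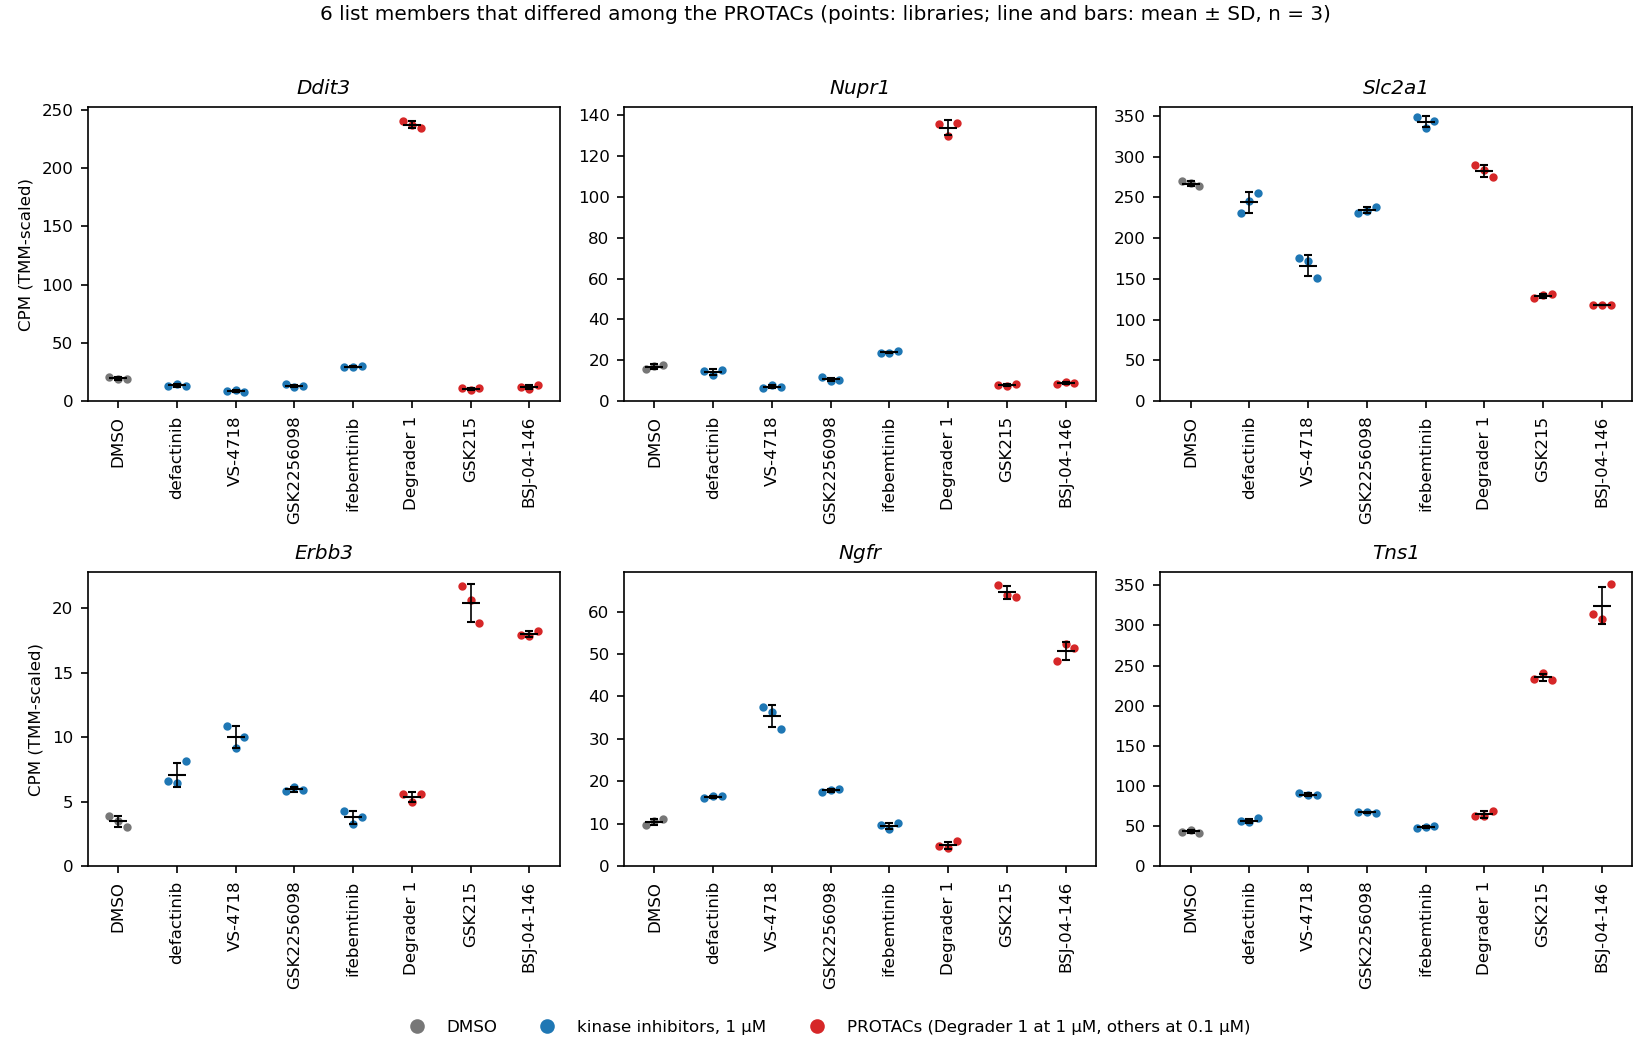
CPM (linear axes from 0) in each of the 24 libraries for 6 list members whose level differed among the PROTACs, with 1 point per library colored by class, and lines and bars for the mean ± SD of each treatment (n = 3). *Ddit3* sits at 234 to 241 CPM with PROTAC FAK Degrader 1 and at 9.88 to 13.8 with the other PROTACs, whereas *Ngfr* sits at 4.22 to 5.83 and 48.3 to 66.2.

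Matrix and integrin genes also fell mainly with PROTAC FAK Degrader 1. In the class comparison, 20 of 30 extracellular matrix genes fell and 9 rose, and 8 of 17 integrin genes fell and 3 rose, beside 32.6% and 34.0% of all genes tested. Of the matrix genes, 23 fell and 4 rose with it (median -0.66), and 10 fell and 15 rose with the PROTACs at 0.1 μM (median 0.04). *Fbn1*, fibrillin 1, was separated in every library at 0.322 to 1.92 against 2.14 to 3.68 CPM (-1.27, SE 0.13). Of the integrin genes, 14 fell and 1 rose with PROTAC FAK Degrader 1 (median -0.72), and 4 fell and 8 rose with the PROTACs at 0.1 μM (median 0.14). These counts stand beside 35.6% lower and 36.7% higher of all genes tested with PROTAC FAK Degrader 1, and 30.4% lower and 31.1% higher at 0.1 μM. Of 14 genes of repair Schwann cells, 4 rose and 5 fell in the class comparison, about the share of all genes. With PROTAC FAK Degrader 1, 3 rose and 9 fell (median -0.28), and with the PROTACs at 0.1 μM 5 rose and 5 fell (median 0.04).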

How the data were processed

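RNA was sequenced from MS03 cells in 24 libraries, 3 in each of 8 groups taken from the sample labels. The authors deposited a table of raw, unnormalized read counts for 49315 Ensembl genes, of which 49141 had a symbol and 49056 were in GENCODE M21, the source of coordinates (GRCm38). The submitters' processing notes name Trimmomatic 0.36, STAR 2.5.2b, featureCounts, Subread 1.5.2 and GRCm38. The annotation and strand setting are not given in the sources used here, so reads of overlapping or near-identical genes may be split.

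Counts were fitted in R 4.3.3 with edgeR 4.0.16 (TMM scaling, the filterByExpr filter and the quasi-likelihood functions, with a coefficient for each group, which left 16 residual degrees of freedom), with equal weight per compound within a class. Two-sided tests were adjusted by the method of Benjamini and Hochberg over 16070 genes, or over genes and 12 pairs together. The SE is the size of a log2 difference over the square root of its F statistic. Intervals for *Ptk2* used 16 degrees of freedom. CPM used TMM-scaled totals, and log2 CPM a prior count of 2. Replicates differed by more than counting noise in all 24 pairs (chi-square per degree of freedom 1.73 to 8.48).

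Named genes were the 12 of widest gap in each direction with an official symbol, a mean of at least 5 CPM and a class difference past the threshold, up to 3 members past the threshold of largest difference in each list, *Met*, *Ptk2*, and the genes just inside and outside the definition. Other list members named were chosen after their values were seen. Some genes that the rule names are not reported here. Members and the 24 lists (599 symbols) were chosen with earlier results of these data known.

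In data simulated for PROTACs against kinase inhibitors over 15634 genes, 76% of 100 genes changed by 0.5 and 91% of 100 changed by 1 on the log2 scale were recovered, with 9 false calls. In the simulation most genes did not change and the compounds of a class shared the same mean. It therefore does not give the error rate among the calls of these data. Alternatives were library totals, no filter, limma-trend on log2(CPM + 4) with limma 3.58.1, DESeq2 1.42.0, a replicate block, no DMSO, a 2-fold minimum, and leaving out each compound and each library. Thinning to the smallest total was added after seeing the data.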

Additional observations from a re-analysis of the deposited data

How the results depend on the processing

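The class comparison gave 10697 genes (5456 higher and 5241 lower) and 10054 to 10907 under no filter, limma-trend, DESeq2, the replicate block, no DMSO libraries and thinning. It gave 9893 to 10825 without 1 compound and 10512 to 10738 without 1 library. A minimum of 2-fold left 583, and separation of all libraries left 1663 of 4208 separated genes. Leaving out 1 library gave 4095 to 4217 separated genes and 1520 to 1629 in all 12 pairs. In all 12 pairs, DESeq2 gave 1337 genes (496 higher and 841 lower), thinning 1489 and no filter 1525.

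Library totals in place of TMM moved the median class difference over all genes from 0.01 to 0.10 and the split of calls toward higher. The split became 7094 higher and 3808 lower for the class, 6959 and 3233 for the PROTACs at 0.1 μM, 6487 and 3385 for the PROTACs against DMSO, 2089 and 1259 for the inhibitors against DMSO, 1116 and 480 for all 12 pairs, and 3148 and 1190 for separated genes. All 28 ribosome biogenesis genes remained lower, and 41 lysosome genes were higher and none lower. The *Ptk2* difference reversed to 0.043. Of 98 single genes under 3037 alternatives, 3021 kept direction and side of the threshold, 12 lost the call (all *Itga11*), and *Ptk2* gained it in 3 and reversed in 1.

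Same-numbered libraries did not deviate together (median correlation -0.0119 over 84 pairs, -0.33 to 0.263). The replicate block gave 10668 genes for the class and 1630 in all 12 pairs. Depth limits genes under 1 CPM, such as *Mx2* and *Irf7*.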
